A study of Rattus norvegicus with 6 samples.

Results

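The U RNAs of the spliceosome and the small Cajal body RNAs (scaRNAs) were followed in small RNA libraries from 6 clonal INS-1 lines. Members were the rows of the deposited gene table named U1, U2, U4, U5, U6, U7, U11, U12, U4atac or U6atac, or with a name starting in Rnu or Scarna followed by a digit, Scarna15 left out. This gave 1451 of 32883 rows under 15 names, and rows of the same name were summed to 1 total. No row carried the name U11, U4atac or U6atac, and the U11 RNA was represented by Rnu11. U6 held 919 rows, U1 220, U4 115, U2 86, U7 83, U5 13 and U12 7. Rnu11, Rnu3a, Scarna2, Scarna3, Scarna3a, Scarna3b, Scarna6 and Scarna10 had 1 row each.

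INS-1 is a rat insulinoma line that serves as a β-cell model, and the derivative used here carries a transgene that couples mouse insulin to mCherry. All 6 lines lack the imprinted Prader-Willi syndrome (PWS) domain on the silent maternal chromosome, an edit introduced in line 5-9. The Control group was line 5-9 and lines 2 and 16, which descend from it. The PWS group was lines 3, 19-1 and 19-4, in which the active paternal copy of the domain was deleted as well. Lines 19-1 and 19-4 were subcloned from the same edited line and thus share 1 editing event, and p-values measure only the spread between these libraries, 1 per clone. All lines were kept at 7.5 mM glucose without further treatment, and each gave 1 library.

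U1 and U2 recognise the 5′ splice site and the branch point, and U4, U5 and U6 join them as a tri-snRNP from which the catalytic core forms. U11 and U12 do the work of U1 and U2 on a rare class of introns, and U7 guides the 3′ end processing of histone mRNAs outside the spliceosome. scaRNAs reside in Cajal bodies, where they direct methylation and pseudouridylation of the spliceosomal RNAs, and SmN, the product of Snrpn in the PWS domain, is a protein of the Sm ring that most of these RNAs carry. Rnu3a is U3, a C/D-box RNA of pre-rRNA processing, and is no part of the spliceosome although its name met the rule.

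Depth ran from 7373691 reads in line 19-4 to 16480475 in line 3, and members took 0.577 to 0.879% of the reads. Rows named Snord116, the C/D-box snoRNAs of the deleted domain, summed to 5557 to 8804 normalized reads in the Control lines and 1.78 to 3.96 in the PWS lines, which matched the labels. The 10 β-cell markers all had reads, though Mafa, Nkx2-2 and Ins2 were at 0 in some library. Mir375 held nearly all of these reads, at 558022 to 833397 normalized reads a line. Gcg, Sst, Ppy and Ghrl of other endocrine cells and Cpa1, Krt19 and Prss1 of exocrine cells were at 0 in every library. In these libraries mRNAs are caught only as fragments, so a 0 does not show that a cell type is absent. Mir206 of muscle had 0 to 2.61 normalized reads, and Amy2a3, Mir122, Mir1 and Mir133a1 had no row. The blood markers summed to 43.1 to 76.5 and the endothelial Mir126a was at 13.9 to 35.6 normalized reads, with overlapping groups, and their part in the results was not tested. A normalized read is a read count divided by the size factor of its library. Of the 1451 member rows, 701 had at least 1 read, and 188 had a mean of 5 normalized reads or more over the 6 libraries.

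Of all members, Scarna3 and Scarna3b came closest to a difference between the genotypes, and in rat the name Scarna3 belongs to a microRNA gene. RefSeq (GRCr8) gave the symbol Scarna3 to a gene of 90 nt that also goes by Mir1843a and lies inside Dcaf5, and 4 of the 15 names were found there in all. Its mature miRNAs are shown because RefSeq places them in the gene of this name, with the seed (bases 2 to 8) in capitals, beside those of its relative Mir1843b, whose reads were nearly all of those of Scarna3a.
rno-miR-1843a-5p (chr6:104955400-104955420, minus strand): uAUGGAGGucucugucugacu
rno-miR-1843a-3p (chr6:104955361-104955382, minus strand): uCUGAUCGuucaccuccauaca
rno-miR-1843b-5p (chr13:74085003-74085025, plus strand): aUGGAGGUcucugucugacuuag
rno-miR-1843b-3p (chr13:74085040-74085060, plus strand): uCUGAUCGuuccccuccauac
The 3p forms share the seed CUGAUCG, whereas the 5p seeds are offset by 1 base, AUGGAGG against UGGAGGU. The Mir1843b hairpin of 62 nt (chr13:74085000-74085061, plus strand) is given with both mature miRNAs in capitals.
Mir1843b hairpin: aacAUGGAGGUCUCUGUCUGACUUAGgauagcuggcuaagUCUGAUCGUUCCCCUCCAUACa
Coordinates are those of GRCr8, whereas the deposited tables were made on Rnor_6.0. No snRNA sequence was in the tables used, so none is printed.

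The first question was whether any member differed between PWS and Control lines. By limma-trend, none of the 15 totals was called at an adjusted p under 0.1 (0 of 15, against 1.34% of the 4119 features tested). All called features were lower in PWS lines. In the paper's own test, nearly all called small RNAs belonged to the PWS domain. At an unadjusted p under 0.05 there were 3 members, Scarna3, Scarna3b and U6, all lower in PWS lines, against 6.22% of all features in either direction and 3.84% in that direction. edgeR, DESeq2 and limma-voom on the recovered reads also called 0 members, with 3, 2 and 3 at an unadjusted p under 0.05. The median log2 fold change was -0.14 over the 15 members and 0.02 over all features tested. The members' median was -0.43 without line 3, -0.34 without line 2 and -0.033 without line 19-4. Intervals were wide, and the 95% interval of U1 reached from 0.570 to 1.54 times the Control level.

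**Figure D1:**
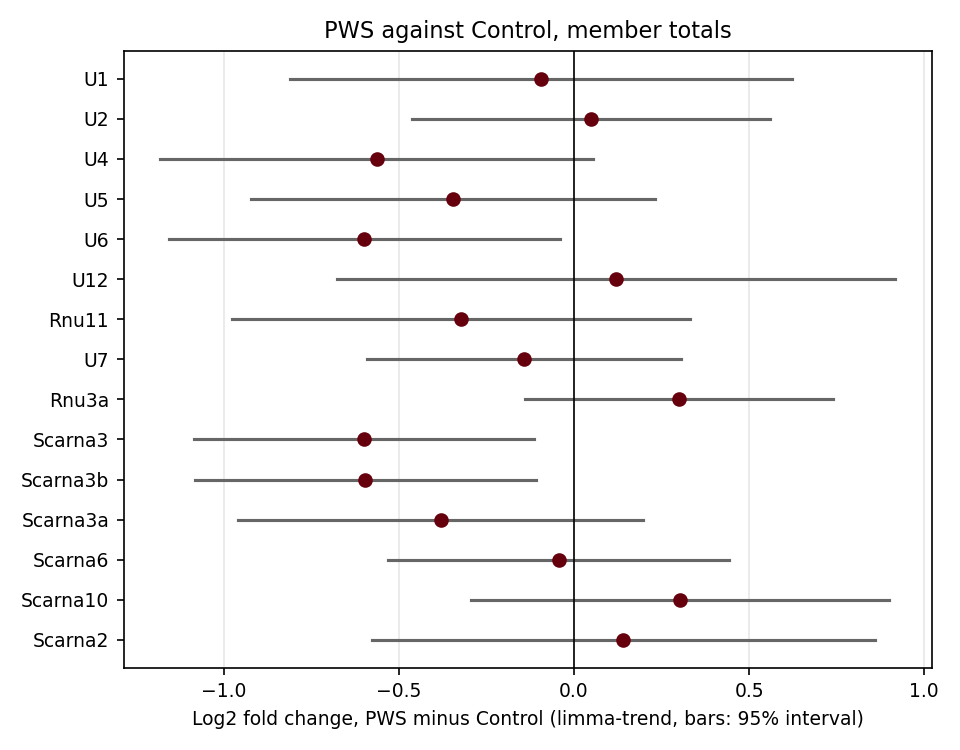
Log2 fold change (PWS minus Control, horizontal axis) of each member total on the log2(normalized reads + 1) scale, with points for the limma-trend estimate and bars for its 95% interval from 3 PWS and 3 Control lines. The intervals of U6, Scarna3 and Scarna3b lie below 0 and those of the other 12 members include 0, and no member passed the adjusted threshold.

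The major spliceosomal RNAs were led in read number by U2, which took 52.6% of all member reads, and U1, with 26.4%. These are read numbers and not levels per length. U2, the branch point RNA, had 45543.5, 30281 and 46339.6 normalized reads in Control lines 5-9, 2 and 16, and 42367, 54992 and 30306 in PWS lines 3, 19-1 and 19-4. Line 19-1 held the most and its sister subclone 19-4 nearly the least, so the groups overlapped. The means were 40721 ± 9051 in Control and 42555 ± 12344 in PWS lines (SD, n = 3 each), a log2 fold change of 0.05 ± 0.24 (SE, limma-trend adjusted p = 0.982). It was 0.27 without line 19-4 and turned to -0.16 without line 19-1 and to -0.15 without line 2.

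U1, the 5′ splice site RNA, had 20495, 10061 and 30264 normalized reads in Control lines 5-9, 2 and 16. The values of lines 3, 19-1 and 19-4 were 27303, 18033 and 10421.5. Line 2 was the lowest and line 16 the highest of all, a 3.01-fold range inside the Control group alone, and the PWS values lay between them. Its log2 fold change was -0.09 ± 0.34 (SE, limma-trend adjusted p = 0.969). It was -0.53 without line 2 and -0.43 without line 3, and turned to 0.26 without line 16 and 0.27 without line 19-4.

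The tri-snRNP RNAs U4, U5 and U6 had their highest and their lowest line in common, while the order of the other lines differed among them. U4, which pairs with U6 before activation, had 2309.6, 1448 and 1179 normalized reads in Control and 1438, 1273 and 667 in PWS lines. Line 5-9 stood above the others and line 19-4 below them, and the remaining 4 lines of both groups overlapped. The log2 fold change of U4 was -0.56 ± 0.30 (SE, limma-trend adjusted p = 0.804), and it was -0.22 without line 19-4 and -0.29 without line 5-9.

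U5, which holds the exon ends, had 3704, 2633 and 2057 normalized reads in the Control lines, and 2599, 2712 and 1387 in the PWS lines. Again line 5-9 was the highest and line 19-4 the lowest. U5 differed by -0.35 ± 0.28 on the log2 scale (SE, limma-trend adjusted p = 0.869), but by -0.033 without line 19-4 and by -0.12 without line 5-9.

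For U6, the catalytic RNA, Control lines had 1347, 1071 and 892 normalized reads and PWS lines 797, 957 and 485. PWS line 19-1 lay above Control line 16, so the groups overlapped here too. The PWS mean of 746 ± 239.97 against a Control mean of 1103 ± 229 (SD, n = 3 each) was a log2 fold change of -0.60 ± 0.27 (SE, unadjusted p = 0.0373, adjusted p = 0.773 in limma-trend). Without line 19-4 it was -0.32, the smallest value when any 1 line was left out, and without line 19-1 it was -0.81, the largest in size.

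Among the RNAs of the minor spliceosome, U12 varied most across lines of all 15 members. U12, the branch point RNA of U12-type introns, had 762, 327 and 1339 normalized reads in the Control lines, and 1198, 596 and 599.8 in the PWS lines. The 4.10-fold range lay wholly between the Control lines 2 and 16. The log2 fold change was 0.12 ± 0.38 (SE, limma-trend adjusted p = 0.969), and it turned to -0.42 without line 2 and -0.21 without line 3 and was 0.59 without line 16. In edgeR and DESeq2 it was -0.02. Rnu11, the U11 RNA of the 5′ splice site, had 80.8, 98.0 and 81.0 normalized reads in the Control lines, and 80.2, 90.3 and 44.8 in the PWS lines. Line 19-4 alone stood apart, with 34 reads (log2 fold change -0.32 ± 0.31 SE, limma-trend adjusted p = 0.876). The value was -0.019 without line 19-4 and -0.52 without line 19-1. U12 and Rnu11 thus did not share their order of lines, since line 2 was lowest for U12 and highest for Rnu11.

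U7, the histone pre-mRNA RNA, was the third most read member. It had 6299.5, 7565 and 6434 normalized reads in the Control lines, and 5005, 6402 and 7102 in the PWS lines. Line 3, the most deeply sequenced, was lowest and line 2 highest, whereas U12 was lower in line 2 than in line 3 (log2 fold change -0.14 ± 0.21 SE, limma-trend adjusted p = 0.923). Without line 2 the value was -0.060 and without line 19-4 it was -0.25, and without line 3 it was nearly 0. Of the 40430 reads of U7, 13449 belonged to a row whose reads were all counted for Grcc10 too.

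Rnu3a, the U3 row, had 2355, 2717 and 2766 normalized reads in Control lines 5-9, 2 and 16 and 3324, 2889.95 and 3439.5 in PWS lines 3, 19-1 and 19-4. All 3 PWS lines lay above all 3 Control lines, as did 5.07% of the features tested. The means of 2613 ± 224 and 3218 ± 289.7 (SD, n = 3 each) gave a log2 fold change of 0.30 ± 0.21 (SE, limma-trend adjusted p = 0.862). Every one of its 19010 reads was also counted for another row named U3, which falls outside the rule.

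**Figure D2:**
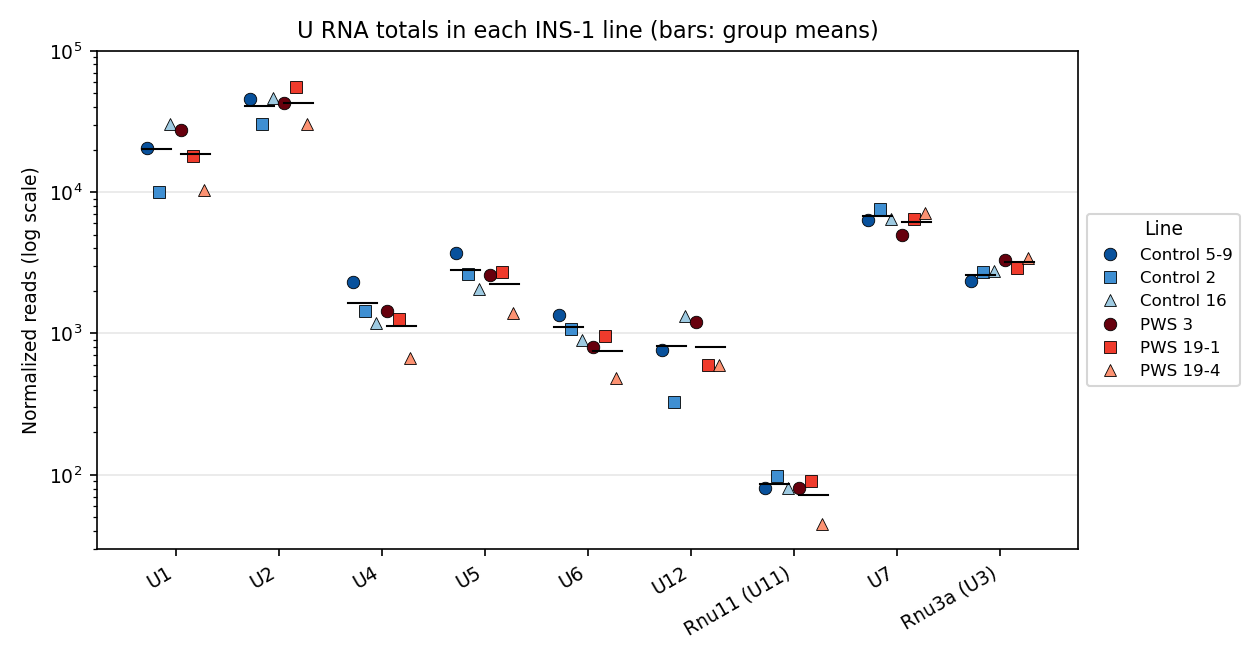
Normalized reads (log axis) of the U RNA totals in each line, with blue points for the 3 Control lines, red points for the 3 PWS lines and bars for the group means. U1 and U12 are lowest in Control line 2 and highest in Control line 16, U4, U5 and U6 are highest in line 5-9 and lowest in line 19-4, and only Rnu3a separates the groups.

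Summed by class, the major snRNAs ranged from 43267 normalized reads in line 19-4 to 80732 in line 16, with a PWS to Control ratio of 0.981. The minor snRNAs U12 and Rnu11 had a ratio of 0.971 and the scaRNAs, with Scarna3 left out since its reads are those of Scarna3b, one of 0.875. The scaRNA ratio became 1.05 in the deposited table that leaves out reads shared by several genes, in which Scarna3b kept 38 of its 3312 reads and Scarna3 none. There the ratios of the major and minor snRNAs moved by less than the spread between lines.

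Scarna3b and Scarna3, the box H/ACA names, had the lowest unadjusted p-values of the 15 members. Scarna3b had 667, 626 and 572 normalized reads in Control lines 5-9, 2 and 16 and 423, 449 and 364 in PWS lines 3, 19-1 and 19-4. Scarna3 had 663, 617 and 566 in Control and 418, 438 and 363 in PWS lines. For both names the 3 PWS lines lay below the 3 Control lines without overlap, which held for 2 of 15 members and for 6.19% of the features tested. Both names hold the same reads, since the 3274 reads of Scarna3 were all counted for Scarna3b too, so they amount to a single observation.

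The Scarna3 means were 615 ± 48.7 in Control and 406 ± 39.1 in PWS lines (SD, n = 3 each). The fold of PWS over Control was 0.660 with a 95% interval of 0.472 to 0.924, a log2 fold change of -0.60 ± 0.23 (SE, unadjusted p = 0.0182, adjusted p = 0.705 in limma-trend). When each line was left out in turn the log2 value stayed between -0.66 and -0.52, and its adjusted p under 18 alternatives ran from 0.314 to 0.994. The ratio of Scarna3b to Scarna6 within each library was 1.34, 1.51 and 1.28 in Control and 0.933, 1.08 and 0.812 in PWS lines. Since Scarna6 was nearly level, this ratio restates the values of Scarna3b. The gene that RefSeq places around it, Dcaf5, had 0 to 7 reads a library and was not tested.

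Scarna3a followed with 131, 128 and 107 normalized reads in the Control lines, and 114, 88.2 and 80.4 in the PWS lines. PWS line 3 lay above Control line 16 (log2 fold change -0.38 ± 0.28 SE, limma-trend adjusted p = 0.862). Of its 707 reads, 683 were also counted for Mir1843b, and these were all the reads of Mir1843b. Whether the reads of the 3 Scarna3 names came from mature miRNA or from a longer scaRNA was not tested, since the tables hold no read lengths.

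Scarna6, a guide of U5 modification, was the steadiest member. It had 497, 414 and 448 normalized reads in the Control lines, and 453, 415 and 448 in the PWS lines. All 6 values fell within a 1.20-fold range and the groups overlapped (log2 fold change -0.04, 95% interval -0.53 to 0.44).

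Scarna10, a guide that joins box C/D and H/ACA parts, had 232, 142 and 258 normalized reads in Control and 311, 196 and 264 in PWS lines. Line 2 was lowest and line 3 highest (log2 fold change 0.30 ± 0.29 SE, limma-trend adjusted p = 0.876), and the value was 0.042 without line 2 and 0.15 without line 3. Scarna2, a guide of U2 methylation, had 166, 88.9 and 245 normalized reads in the Control lines, and 249, 131 and 149 in the PWS lines. It was likewise lowest in line 2, and lines 3 and 16 were highest (log2 fold change 0.14 ± 0.34 SE, limma-trend adjusted p = 0.955), and the sign turned without line 2 (-0.25) or line 3 (-0.13). RefSeq gives lengths of 416 nt for Scarna2, 328 nt for Scarna10 and 263 nt for Scarna6, above the 200 nt to which the libraries were selected. Per 100 nt of annotated length, the means over the 6 lines were 41.2 normalized reads for Scarna2, 71.3 for Scarna10, 170 for Scarna6 and 567 for Scarna3. These values do not rank the RNAs. Those above 200 nt are seen only as fragments, and the reads of Scarna3 may be mature miRNA, which was not tested.

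Scarna18, ScaRNA20 and ScaRNA7 carry clone names in the table and fell outside the rule. Scarna18 had 1108, 1302 and 1346 normalized reads in Control and 1257, 1266 and 2323 in PWS lines, with line 19-4 above all others. ScaRNA20 ranged from 109.9 to 154 and ScaRNA7 from 91.0 to 148, with overlapping groups for both. None of the 3 was called (limma-trend adjusted p = 0.873, 0.987 and 0.969), and with them the count of called members stayed at 0 of 18.

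**Figure D3:**
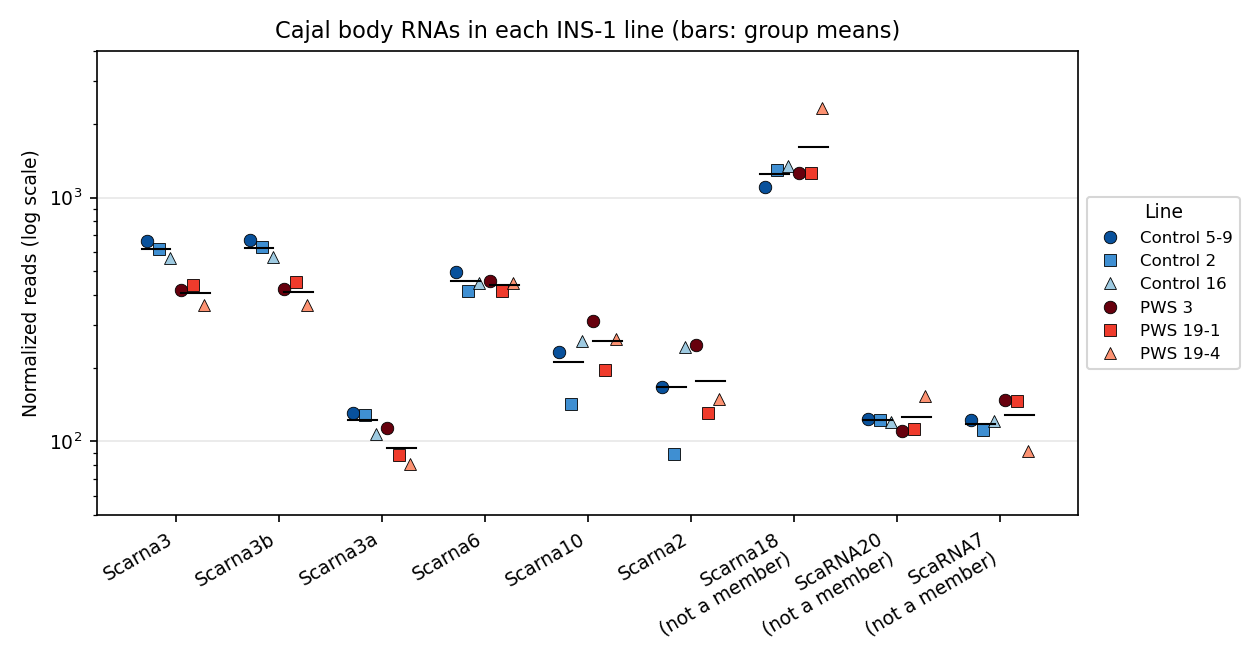
Normalized reads (log axis) of the scaRNAs in each line, with blue points for the 3 Control lines, red points for the 3 PWS lines and bars for the group means. Scarna3 and Scarna3b, which hold the same reads, are the only names whose groups do not overlap, and Scarna6 is nearly level across lines.

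U1, U12, Scarna2 and Scarna10 were all lowest in line 2, and their 2 highest lines were 16 and 3 except for Scarna10, whose highest were 3 and 19-4. Lines 3 and 16 were also the most deeply sequenced, and lines 19-4 and 2 the least, and the part of depth in this order was not tested. Ratios within a library are given as values. The U1 to U4 ratio was 8.87 in line 5-9, 6.95 in line 2 and 25.7 in line 16, and 19.0, 14.2 and 15.6 in lines 3, 19-1 and 19-4, a 3.70-fold range. The U1 to U2 ratio ran from 0.328 in line 19-1 to 0.653 in line 16, and the Scarna2 to Scarna6 ratio from 0.215 in line 2 to 0.549 in line 3.

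The U4 to U6 ratio lay between 1.32 and 1.80, the U4 to U5 ratio between 0.469 and 0.624 and the U12 to U1 ratio between 0.0325 and 0.0576. These pairs were named together because their values moved alike, so their ratios are a description only. Over the 15 members the highest value fell in line 5-9 for 7 names and the lowest in line 19-4 for 7 and in line 2 for 6. The ratio of the highest to the lowest Control line had a median of 1.51 over members and of 1.38 over the 656 features whose mean was 50 normalized reads or more.

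**Figure D4:**
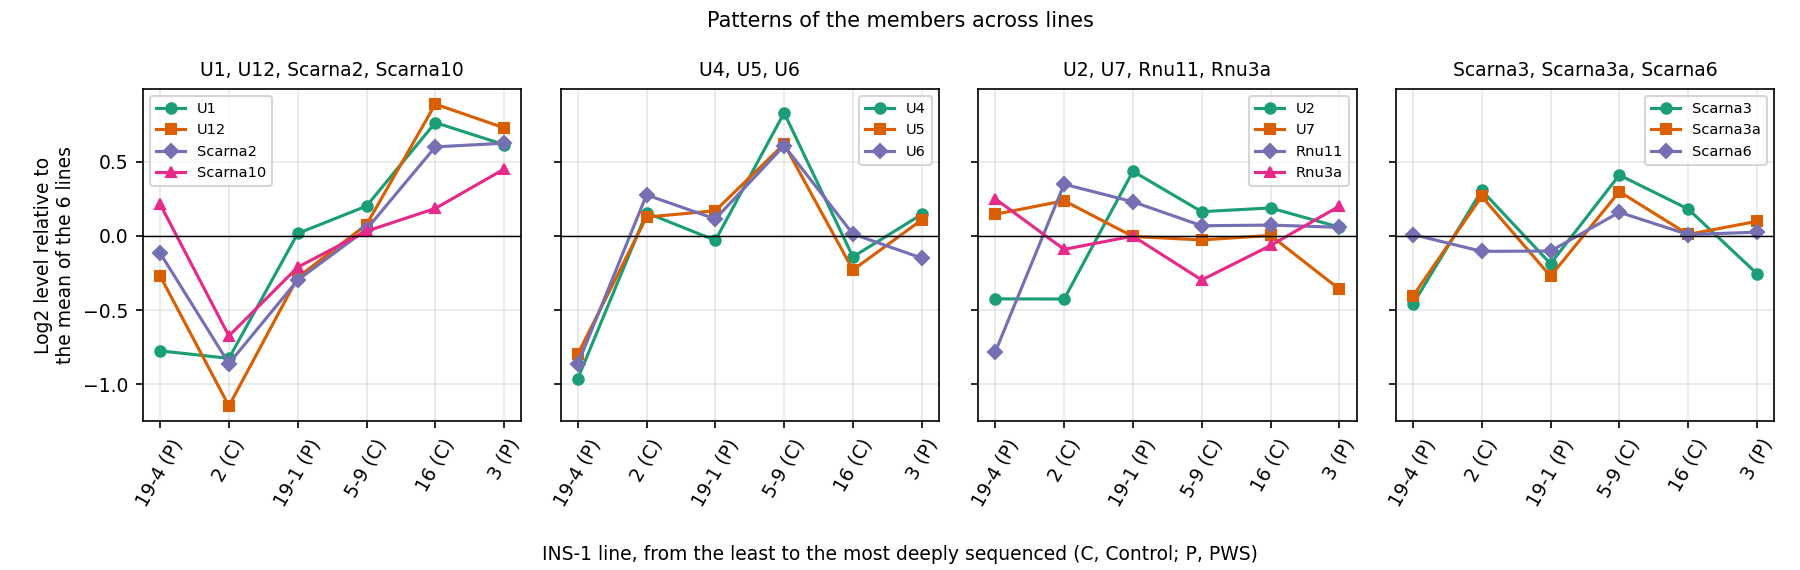
Log2 level of each member relative to its mean over the 6 lines (vertical axis), with lines ordered from the least to the most deeply sequenced (C, Control and P, PWS). U1, U12, Scarna2 and Scarna10 rise from line 2 towards lines 16 and 3, whereas U4, U5 and U6 peak in line 5-9 and are lowest in line 19-4.

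The annotated copies of each U RNA were then taken one by one. How alike the copies of a U RNA are in sequence was not checked here, so which copy a read came from is uncertain where copies match, and rows are not counted as independent measurements. Reads of U1 were spread over many rows, with 52 of 220 reaching a mean of 5 and 32 rows needed for 90% of the reads, and the most abundant, ENSRNOG00000051920, took 3.47%. Of the 52 rows, 49 were highest in line 16, like the total. U12 lay in 2 rows that took 99.8% of its reads, and both were highest in line 16 and lowest in line 2. Its most abundant row, ENSRNOG00000054193, had 400 normalized reads in line 5-9, 158 in line 2 and 667 in line 16, and 595, 298 and 319 in lines 3, 19-1 and 19-4.

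U2 had 48 rows at a mean of 5 or more, of which 23 were highest in line 19-1, 15 in line 5-9 and 21 lowest in line 19-4. The level in line 19-1 over the mean of the other lines ran from 0.487 to 2.298 among these rows with a median of 1.34, so the excess of line 19-1 was not shared by every copy. In the most abundant row, ENSRNOG00000054769, line 19-1 had 3583 normalized reads and line 19-4 had 1739. A further U2 row with 13156 reads shared all of them with Rdm1.

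U4 was concentrated in 3 rows with 87.6% of its reads, led by ENSRNOG00000052742 with 688, 388 and 353 normalized reads in Control and 434, 386 and 187 in PWS lines. Of its 10 tested rows, 9 had a lower mean log2 level in PWS lines. The same count held for the 10 rows of U5. Its most abundant row, ENSRNOG00000058970, was the exception, with 791, 762 and 685 normalized reads in the Control lines, and 826, 1025 and 684 in the PWS lines (log2 fold change 0.16 ± 0.25 SE, limma-trend adjusted p = 0.933), while the median over U5 rows was -0.56.

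U6 was the most scattered, since 214 of its 919 rows were needed for 90% of the reads and its 53 rows at a mean of 5 or more held 42.4%. Of these 53, 47 had a negative log2 fold change (median -0.64), 33 were highest in line 5-9 and 36 lowest in line 19-4. The most abundant, ENSRNOG00000055112, had a mean of only 16.9 normalized reads. U7 had 3 rows with 98.6% of its reads, the first of which, ENSRNOG00000056101, had 2068, 2594 and 2127 normalized reads in Control and 1677, 2170.35 and 2439 in PWS lines.

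Tested row by row, 0 of 188 member rows were called by limma-trend, against 1.28% of the 4292 rows tested. At an unadjusted p under 0.05 there were 12, or 6.38% against 5.96% of all rows, all of them lower in PWS lines (3.8% of all rows), and 6 of these were U6 rows. In 17 member rows, 8 of them of U6, the PWS lines lay below the Control lines without overlap (9.04% of member rows against 6.29% of all rows), and in 1 row, Rnu3a, they lay above (0.532% against 4.87%). Negative log2 fold changes made up 69.1% of member rows and 49.7% of all rows. The remaining 1263 rows had a mean under 5, and 750 rows had no read.

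**Figure D5:**
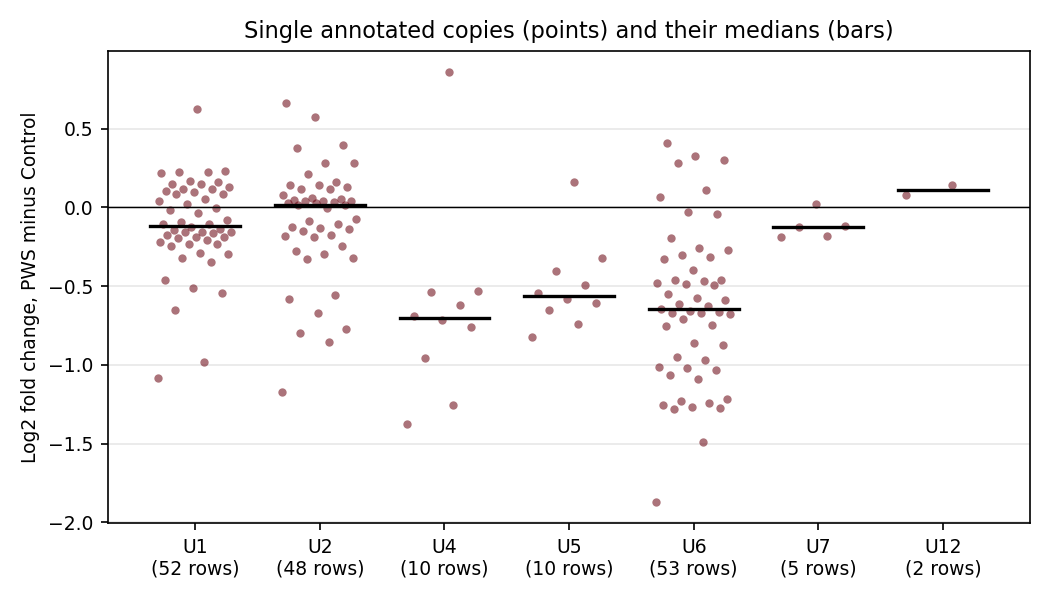
Log2 fold change (PWS minus Control) of every annotated copy with a mean of 5 normalized reads or more, 1 point per row, with bars for the median of each U RNA. The medians of U4, U5 and U6 lie at -0.70, -0.56 and -0.64 and those of U1 and U2 at -0.12 and 0.01, and no row was called.

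Genes for the factors that make, assemble or use these RNAs were covered by 6 lists of 122 symbols, of which 44 genes reached the filter. Nearly all code for proteins, and Terc, the telomerase RNA, is non-coding. Snrpb, which encodes Sm ring proteins, had by far the most reads, with 7299.99 to 13633 normalized reads a line. No other listed gene had a group mean above 42.7. Whether the Snrpb reads came from its mRNA or from a smaller RNA within the gene was not tested. In these libraries mRNAs are caught only as fragments, so the tests of protein-coding genes compare fragment counts and not mRNA levels. Whether the mRNA levels of these genes differ between the genotypes was not tested. The paper also sequenced total RNA of the same lines, and those libraries were not used here. None of the 44 was called in either direction, against 1.34% of all features (limma-trend, 1 at an unadjusted p under 0.05 against 6.22% of all features, edgeR and DESeq2 0 called and 0 at that level, limma-voom 0 called and 2). By list, the genes tested were 16 for major snRNP and splicing proteins, 4 for minor snRNP proteins, 3 for the U7 snRNP, 7 for snRNA transcription and 3′ processing, 7 for snRNP assembly and 7 for Cajal body and scaRNP components.

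The gene at an unadjusted p under 0.05 was Toe1, a Cajal body exonuclease that trims snRNA 3′ ends, which is named here after its values were seen. It had 0.985, 2.61 and 6.17 normalized reads in Control and 7.13, 10.5 and 7.91 in PWS lines (log2 fold change 1.34 ± 0.62 SE, limma-trend adjusted p = 0.780). The PWS lines lay above the Control lines for 5 of the 44 genes (11.4%, against 5.07% of all features), and below them for 0 (against 6.19%). The 5, named likewise after their values were seen, were Toe1, Dhx15, Clns1a, Ints2 and Sf3b2. Their adjusted p-values were 0.780 to 0.825 in limma-trend and their Control means 3.03 to 18.7 normalized reads. Gaps were small. The highest Control and lowest PWS values were 5.23 and 5.35 for Ints2, 6.54 and 8.91 for Dhx15, 7.72 and 8.91 for Sf3b2, and 20.9 and 23.1 for Clns1a. Snrpn, in the deleted domain, had 1, 2 and 4 reads in Control lines and 0 in each PWS line, too few for the filter. The paper counts Snrpn among the strongly expressed domain genes of INS-1 cells, and these fragment counts do not measure its mRNA level.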

How the data were processed

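Small RNA libraries were made with a UMI miRNA kit size-selected to 200 nt. Per the submitters' processing notes and the methods, the authors used UMI-tools 1.0.0, cutadapt 1.18, Bowtie2 2.3.4.2, Rnor_6.0 and HTSeq 0.11.2 (reads fitting several genes counted for each). The deposited signal is gene counts divided by a DESeq2 size factor. Reads were recovered by dividing each library's values by its smallest value above 0, taken as 1 read, which gave whole numbers for 100% of values above 0 (tolerance 0.001). The authors' own fold changes and p-values were not used.

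Member rows were summed by name, ignoring case. limma-trend (limma 3.58.1, R 4.3.3) was fitted on log2(normalized reads + 1) over all features with a mean of at least 5, with no covariate beside genotype, p-values were adjusted by Benjamini-Hochberg, and calls were made at 0.1. On this scale changes of low genes are understated. Recovered reads were tested with edgeR 4.0.16, DESeq2 1.42.0 and limma-voom. The script was tested on simulated data. Members and lists were chosen with earlier results of these data known. Named were U RNA totals, the scaRNAs with the highest means, members whose groups did not overlap, the most abundant row of each multi-copy name and called genes. RefSeq (GRCr8) gave names, lengths and miRNA sequences only.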

Additional observations from a re-analysis of the deposited data

How the results depend on the processing

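Under all 21 alternatives run, 0 members were called, and 0 pathway genes were called under each of the 19 alternatives run on totals by name. These covered pseudocounts of 0.5 and 5, filters at 1 and 20 or none, upper-quartile and TMM scaling, edgeR, DESeq2, limma-voom, the table without shared reads, subclones averaged and each line left out. Joining names by U type changes nothing, as each type has 1 name. The smallest adjusted p of any member was 0.314. The members' median log2 fold change lay between -0.43 (without line 3) and -0.033 (without line 19-4), and was -0.34 without line 2. Upper-quartile scaling moved it to -0.08 and that of all features to 0.08. Class ratios with 1 line left out ran from 0.847 to 1.15 for major snRNAs, 0.743 to 1.37 for minor snRNAs, 0.843 to 0.998 for U7, 1.17 to 1.29 for U3 and 0.821 to 0.909 for scaRNAs, and the scaRNA ratio became 1.05 in the table without shared reads, where Rnu3a and Scarna3 had no reads.

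Of 15 members, 10 kept their sign under every alternative. Signs turned for Scarna6 with upper-quartile scaling (0.018), for U1 with the subclones averaged (0.10) and for U12 in edgeR and DESeq2 (-0.021 in both). With 1 line left out the log2 fold change ran from -0.25 to 0.47 for Scarna2, from -0.11 to 0.025 for Scarna6, from -0.53 to 0.27 for U1, from -0.42 to 0.59 for U12 and from -0.16 to 0.27 for U2, with the turns on leaving out line 2 or 3 (Scarna2 and U12), 5-9 (Scarna6), 16 or 19-4 (U1) and 2 or 19-1 (U2). Apart from the settings named, the cause was not tested.

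Libraries with the same replicate number correlated at 0.406, 0.281 and 0.0770 in their deviations from the group means over 999 genes, so the numbers were not taken as pairs. With the replicate number as a block, 0 members and 62 features were called, against 55 without it, the members' median was -0.14, and libraries 1 and 2 but not 3 matched best with their own number.

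The lowest members, such as Rnu11 with 34 to 135 reads a library, carry the widest counting error. With 1 library per clone, spread between clones and between libraries cannot be told apart.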
